A study of Mus musculus with 2 samples.

Results

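A set of 9 genes of smooth muscle cells and pericytes was examined in sorted cranial neural crest cells of mouse embryos, namely Acta2, Tagln, Actc1, Myl9, Cnn1, Rgs5, Cspg4, Vtn and Heyl. These 9 genes, of the 32285 in the files, were chosen by their names at a time when 2 things about these data were already known: the difference of Acta2 and Actc1 between the libraries, and a mesenchyme cluster with Vtn and Tagln among its leading genes. The levels and ratios of these genes are therefore given as descriptions, with no test. Heads of E11.5 embryos were taken down to the second pharyngeal arch, and cells carrying green fluorescent protein (GFP) were sorted from them. The Wnt1:CRE transgene, which is active in premigratory neural crest and in parts of the brain, switched the mTmG reporter from red to green fluorescence in both groups. Control embryos carried 1 floxed copy of Tfap2a (wt/flox) and 1 of Tfap2b (wt/flox), and mutant embryos carried 2 floxed copies of each gene (flox/flox). The reporter (r26 mTmG/mTmG) and the driver (Wnt1CRE+) were common to all embryos, so the control cells had also recombined 1 copy of each gene. Each library was a pool of 2 embryos, and the mutants were siblings of the controls. With 1 library per group there was no replicate error, and genotype, library and the sex of the embryos cannot be told apart, because Xist was found in the control and Y-linked transcripts in the mutant library.

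Smooth muscle cells wrap arteries and larger vessels, and pericytes wrap capillaries. Both are called mural cells, and in the face and forebrain many of them descend from the neural crest. Smooth muscle cells contract through actin and myosin filaments and the proteins that bind them, and serum response factor with its partners myocardin and the MRTFs switches on many of these genes through a DNA element called the CArG box. Mural cells are recruited by platelet-derived growth factor from the endothelium and are matured by Notch and TGFβ signals.

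Unique molecular identifiers (UMIs), each marking 1 captured transcript molecule, were counted per gene and barcode. After filtering, 5625 control cells with 82313680 UMIs and 5587 mutant cells with 77251738 UMIs were kept. Mesenchyme-like cells, named from Prrx1, Prrx2, Twist1, Fli1 and Pdgfra, numbered 3759 in the control and 2816 in the mutant library, with medians of 14568 and 14474 UMIs. The other cells were neural-like (1605 and 2570) and glia-like (261 and 201). Within the mesenchyme, 4 clusters were named maxillary-like, frontonasal-like, second arch-like and mandibular-like from their markers. Cluster 4, with 398 control and 397 mutant cells, had haemoglobin genes, Vtn, Zic1 and Tagln among its leading genes and was given no name. Of its 12298 control haemoglobin UMIs, 12240 lay in 1 barcode that held no UMI of the 9 genes. A further unnamed cluster of 42 control and 84 mutant cells consisted mostly of called doublets (76.2% and 70.2%). The members took no part in the clustering. The libraries shared 6 barcodes. Levels are summed UMIs per 1000000 UMIs of the same cells (CPM), and all brackets are exact 95% intervals that cover counting error only.

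A small number of mutant cells held most of the Acta2, Actc1, Cnn1 and Tagln transcripts of the mutant mesenchyme. Acta2, which encodes smooth muscle α-actin, was detected in 14 of 3759 control and 23 of 2816 mutant mesenchyme-like cells, shares of 0.372% (0.204 to 0.624) and 0.817% (0.518 to 1.22) whose intervals overlapped. Its UMIs numbered 37 in the control and 606 in the mutant cells, a mean of 2.64 and 26.3 UMIs per positive cell. Of the 611 Acta2 UMIs of all kept mutant cells, 95.7% (93.8 to 97.2) were in 10 cells, against a median of 2.63% over all 12867 genes with at least 100 UMIs in that library. Of the 54 control UMIs, 88.9% (77.4 to 95.8) were also in 10 cells, and the intervals overlapped. Only 16 control and 28 mutant kept cells held any Acta2 UMI. The shares of cells with any Acta2 transcript thus overlapped, while the mean per positive cell was far apart. The median per positive mesenchyme-like cell was 2 UMIs in the control and 3 UMIs in the mutant library, so the means differed through the highest cells.

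The per-cell counts of Acta2 showed the difference directly. The 8 mutant cells with at least 10 UMIs held 169, 152, 84, 47, 45, 33, 29 and 14. In the control, 2 barcodes passed this cut, with 16 and 11 UMIs. The first of these was a barcode of 843 UMIs and 571 genes in the neural-like class with no Tagln UMI, and the second a mesenchyme-like cell of cluster 4 with 21054 UMIs. Among mesenchyme-like cells, the share past the cut was 0.0266% (0.000674 to 0.148) in the control and 0.284% (0.123 to 0.559) in the mutant library, and the intervals overlapped slightly. The cut marks a range and not a cell type, and 4 control and 5 mutant cells lay just below it with 3 to 8 UMIs.

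**Figure D1:**
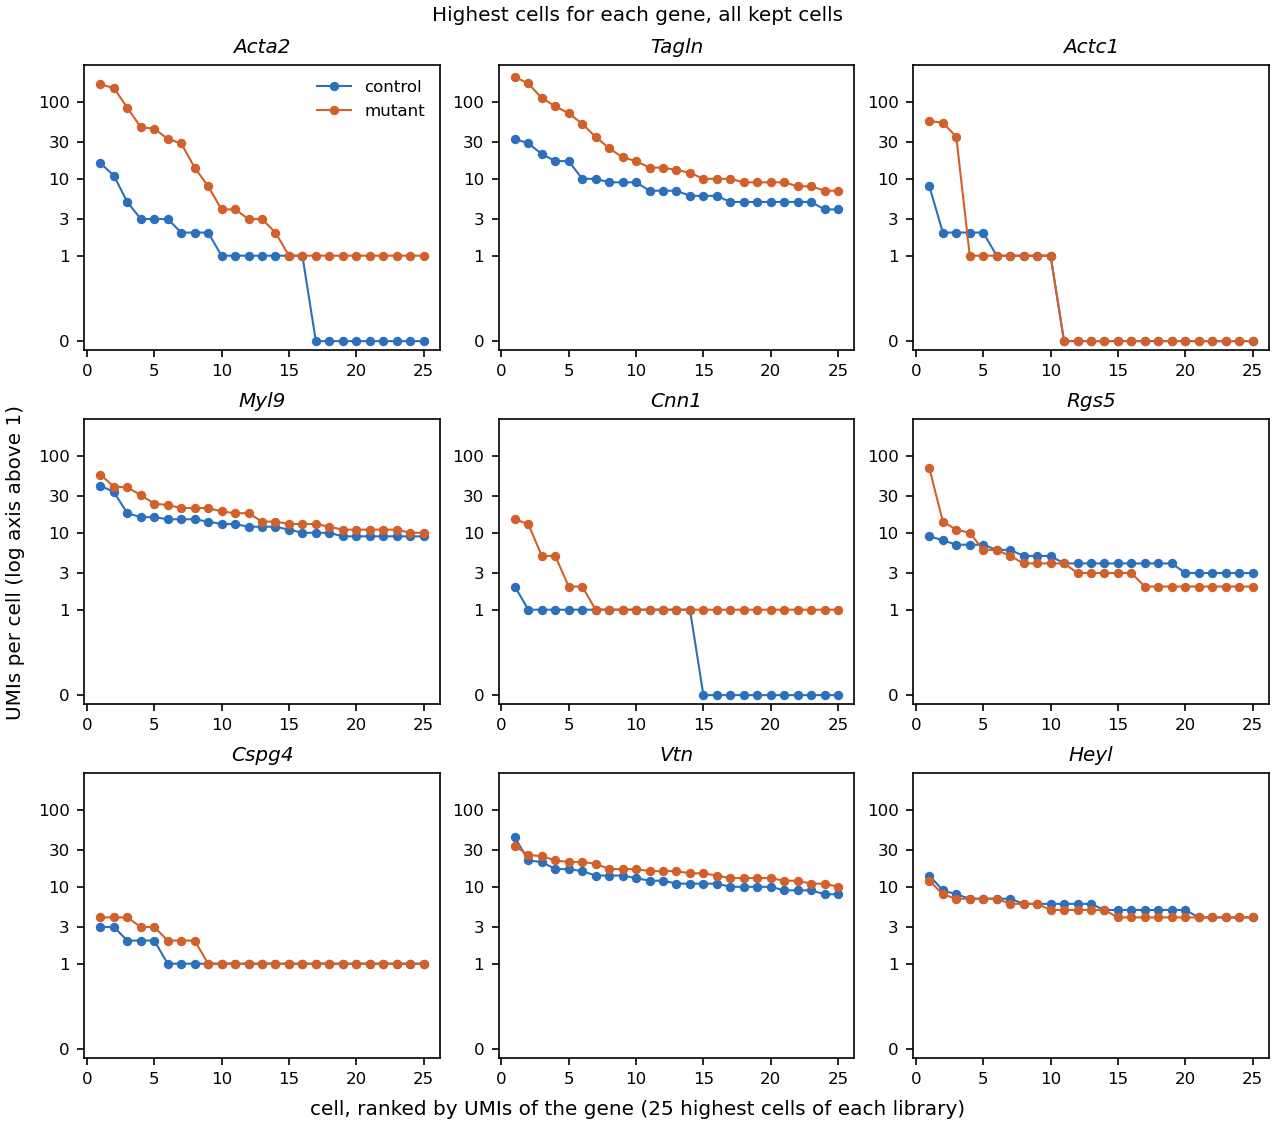
UMIs per cell (vertical axis, logarithmic above 1) of the 25 highest cells (horizontal axis, by rank) for each of the 9 genes, control in blue and mutant in orange, all kept cells. The mutant curves of Acta2, Tagln and Actc1 begin at 169, 211 and 56 UMIs against 16, 33 and 8 in the control and fall steeply, whereas the curves of Vtn and Heyl lie close together.

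Tagln, which encodes the actin-binding protein transgelin (SM22α), was detected in 157 control and 217 mutant mesenchyme-like cells, or 4.18% (3.56 to 4.87) and 7.71% (6.75 to 8.75). Its level was 7.55 CPM in the control and 28.6 CPM in the mutant cells, a log2 ratio of 1.92 (1.76 to 2.08). The highest mutant cells held 211, 174 and 112 UMIs and the highest control cells 33, 29 and 21. The 10 highest cells held 58.3% of the Tagln UMIs of the mutant and 33.3% of those of the control library. Exons of Tagln overlap those of Pcsk7 on the other strand, and how the counting treated strand is not given in the sources used here, so reads of both genes may not be separated. Pcsk7 had 852 control and 844 mutant UMIs.

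Actc1, the actin of the heart that is also made in developing smooth and skeletal muscle, was found in fewer cells than the other contractile genes. It was detected in 10 kept cells of each library, with 21 UMIs in the control and 152 in the mutant cells. In the mutant, 3 cells held 56, 54 and 35 UMIs, and each of the other 7 held 1. The highest control cell held 8 UMIs and lay in the mandibular-like cluster, and 9 of the 21 control UMIs came from 6 glia-like cells. All 3 high mutant cells were also among the 8 cells high in Acta2, and no control mesenchyme-like cell held both actins.

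Cnn1, which encodes the contractile regulator calponin 1, had 14 UMIs in 13 control and 65 UMIs in 29 mutant mesenchyme-like cells, 0.346% (0.184 to 0.591) and 1.03% (0.691 to 1.48) of cells. The 2 highest mutant cells held 15 and 13 UMIs, and no control cell held more than 2. Myl9, which encodes a regulatory light chain of non-muscle and smooth muscle myosin, was spread over many cells instead, in 1131 control (30.1%) and 1078 mutant (38.3%) mesenchyme-like cells. Its level was 38.6 CPM in the control and 57.5 CPM in the mutant cells, a log2 ratio of 0.58 (0.49 to 0.66). The 10 highest cells held 7.54% of the Myl9 UMIs of the control and 9.28% of those of the mutant library.

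Promoter sequences of 4 contractile genes are shown because these genes were found together in several of the 8 mutant cells high in Acta2. Each runs from 250 bases before to 50 bases after the RefSeq start (GRCm38.p6) on the gene's own strand, and capitals mark CArG boxes, CC and GG around 6 inner bases of A or T of which 1 may be another base. They lie at chr19:34255324-34255623 (minus strand, Acta2), chr2:114052826-114053125 (minus strand, Actc1), chr2:156775214-156775513 (plus strand, Myl9) and chr9:22099003-22099302 (plus strand, Cnn1).
Acta2: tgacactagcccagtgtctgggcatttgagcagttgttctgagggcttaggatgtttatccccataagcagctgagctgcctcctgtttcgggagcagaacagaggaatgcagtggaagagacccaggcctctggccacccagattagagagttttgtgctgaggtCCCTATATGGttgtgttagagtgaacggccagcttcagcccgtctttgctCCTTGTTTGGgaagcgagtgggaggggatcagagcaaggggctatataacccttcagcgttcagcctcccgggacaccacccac
Actc1: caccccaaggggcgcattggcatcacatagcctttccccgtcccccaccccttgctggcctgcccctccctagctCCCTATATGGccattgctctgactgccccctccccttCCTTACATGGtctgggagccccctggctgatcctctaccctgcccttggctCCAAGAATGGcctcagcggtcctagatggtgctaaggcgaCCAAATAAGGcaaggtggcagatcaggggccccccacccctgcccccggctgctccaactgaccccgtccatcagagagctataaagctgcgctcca
Myl9: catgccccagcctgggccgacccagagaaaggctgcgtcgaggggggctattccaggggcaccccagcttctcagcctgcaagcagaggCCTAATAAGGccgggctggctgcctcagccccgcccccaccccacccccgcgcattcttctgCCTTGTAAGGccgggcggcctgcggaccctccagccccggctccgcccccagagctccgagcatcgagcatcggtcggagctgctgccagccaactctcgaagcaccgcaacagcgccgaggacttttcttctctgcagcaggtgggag
Cnn1: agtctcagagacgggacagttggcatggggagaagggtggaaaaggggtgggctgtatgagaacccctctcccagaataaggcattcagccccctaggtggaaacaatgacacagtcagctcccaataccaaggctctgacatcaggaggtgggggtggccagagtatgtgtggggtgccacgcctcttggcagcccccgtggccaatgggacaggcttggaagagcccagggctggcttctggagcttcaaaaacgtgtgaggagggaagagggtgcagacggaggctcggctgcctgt
Acta2 held 2 such boxes, Actc1 4, Myl9 2 and Cnn1 0. Those of Acta2 began 84 and 34 bases before the start. A box with no other inner base was found once each in Actc1 and Myl9. Of the 7 members with a promoter in the table, 3 held a box with up to 1 other base, as did 9.98% of all 32851 promoters, and Rgs5, Cspg4 and Vtn held none. The motif GCCNNNGGC bound by TFAP2 proteins was present in Acta2, Actc1 and Cnn1 and in 16.6% of all promoters. Both motifs read the same on both strands. A match is only a description of these letters.

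The positions of the 9 genes (GENCODE M21, GRCm38) were as follows: Acta2 (ENSMUSG00000035783) at chr19:34241090-34255590, Tagln (ENSMUSG00000032085) at chr9:45929619-45936058, Actc1 (ENSMUSG00000068614) at chr2:114047282-114053548, Myl9 (ENSMUSG00000067818) at chr2:156775420-156781658, Cnn1 (ENSMUSG00000001349) at chr9:22099216-22109630, Rgs5 (ENSMUSG00000026678) at chr1:169655501-169695813, Cspg4 (ENSMUSG00000032911) at chr9:56865033-56899870, Vtn (ENSMUSG00000017344) at chr11:78499091-78502324 and Heyl (ENSMUSG00000032744) at chr4:123233556-123249875. All are protein-coding, and Tagln was the only one whose exons overlapped another annotated gene.

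The 8 mutant cells high in Acta2 were described gene by gene. Tagln was present in 8 of 8, with a lowest value of 25, a median of 79.5 and a highest value of 211 UMIs. Myl9 was also present in 8 of 8 (13 to 57 UMIs), as was Heyl (1 to 12 UMIs), a Notch target that encodes a Hes-related transcriptional repressor. Rgs5, a regulator of G-protein signalling and a classical pericyte marker, was present in 7 of 8, with 69 UMIs in 1 cell and between 0 and 11 in the others. Cnn1 was present in 6, Cspg4 in 5, Vtn in 3 and Actc1 in 3 of the 8. Tagln, Myl9, Cnn1, Heyl and Rgs5 were thus shared by most of these cells, whereas Actc1 and Vtn divided them. A cell of 9758 UMIs held all 9 genes, and another of 22755 UMIs held all but Vtn.

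**Figure D2:**
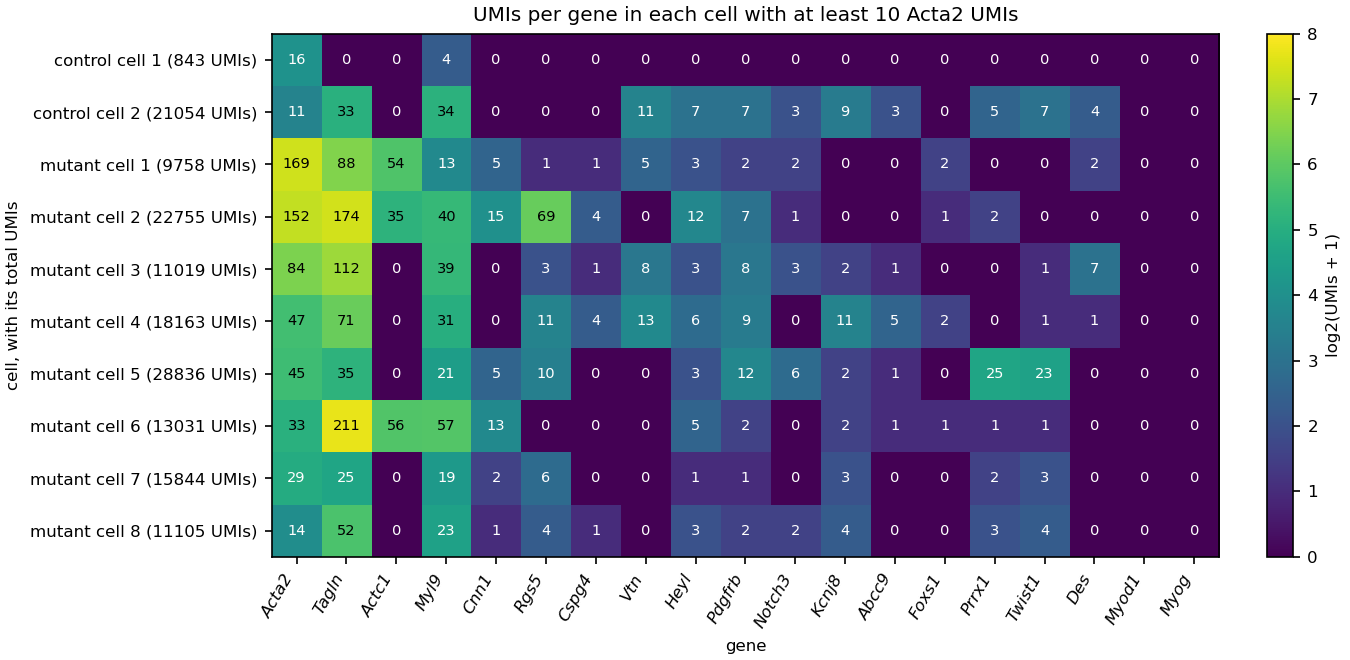
UMIs of the 9 genes, of 5 mural markers, of 2 mesenchyme markers and of 3 muscle genes (columns) in each cell with at least 10 Acta2 UMIs (rows, with the total UMIs of the cell), coloured by log2(UMIs + 1). All 8 mutant rows hold Tagln, Myl9 and Heyl, and Myod1 and Myog are at 0 in every row.

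These 8 cells were 0.284% of the mutant mesenchyme-like cells and held 94.6% of the Acta2, 98.6% of the Actc1, 63.1% of the Cnn1, 61.1% of the Tagln and 39.7% of the Rgs5 UMIs of that class. They held smaller parts of the UMIs of Heyl (14.3%), Myl9 (9.61%), Cspg4 (9.57%) and Vtn (4.67%). Of the 8 cells, 4 lay in cluster 4, 3 in the mandibular-like cluster and 1 in the second arch-like cluster. The last, with 28836 UMIs, 25 of Prrx1 and 23 of Twist1, was the only one called a doublet.

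Marker lists gave the surroundings of these genes in the 8 cells. Of 12 mural markers without the members, 11 were detected, with a median of 1059 CPM over the 8 cells (571 to 3138) against 238 CPM over the other 2808 mutant mesenchyme-like cells, led by the growth factor receptor Pdgfrb, the transcription factor Ebf1, the adhesion protein Mcam and the potassium channel Kcnj8, while Higd1b was at 0. All 14 contractile companion genes were detected, with a median of 10876 CPM against 1598 CPM. Mesenchyme markers were lower in these cells, at a median of 366 CPM against 1242 CPM. Of 22 skeletal muscle markers, 4 were detected with 17 UMIs in all, 10 of them of Des, and the muscle determination genes Myod1, Myog and Myf5 were at 0. None of 10 heart markers, 6 blood markers or 6 macrophage markers had a UMI, and 10 endothelial markers had 4 UMIs in all, with Pecam1 and Cdh5 at 0. The glial marker Fabp7 had 15 UMIs and the progenitor filament gene Nes 53, while Sox10 and Sox2 were at 0. Of the lists of facial position, frontonasal markers had 1 UMI, maxillary 16, mandibular 8, second arch 8 and periocular or meningeal markers 26, and neuron and epithelium markers had 10 and 1.

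The 10 leading genes of these cells were taken by their ratio over the other kept mutant cells, among 385 genes with at least 50 UMIs in the 8 cells and a UMI in 4 or more of them. Of these, 4 were members, Acta2, Tagln, Rgs5 and Myl9. The other 6 were Ccn2, a secreted matrix protein induced by mechanical strain (720 against 12.3 CPM), Timp3, an inhibitor of matrix proteases (467 against 23.0 CPM), the non-muscle myosin heavy chain Myh9 (690 against 36.2 CPM), the receptor Igf2r (598 against 35.8 CPM), the tropomyosin Tpm1 (3226 against 197 CPM) and the basement membrane collagen Col4a2 (659 against 46.3 CPM). Since Acta2 defined the cells, these ratios are descriptions.

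The summed levels of the 9 genes were then set against those of all genes. Among genes with at least 100 UMIs in 1 or both libraries, 8 members could be counted, all but Cnn1. In mesenchyme-like cells, Acta2, Tagln, Actc1, Vtn and Heyl, or 5 of 8, were 1.5-fold or more higher in the mutant library, against 2.39% of 11658 genes, and none was that much lower, against 0.875%. Over all kept cells, 4 of 8 were higher, against 6.65% of 13022 genes, and none was lower, against 1.33%. Acta2 and Actc1 were among the values by which the list was proposed, so nothing is read from these counts. The median log2 ratio of the 8 members counted was 0.99 in mesenchyme-like cells, against 0.02 over all genes tested. For the same reason nothing is read from this median. Among members with at least 100 UMIs in the mutant library, Acta2, Tagln and Actc1 had 50% or more of their UMIs in 10 cells, against 0.264% of 12867 genes. Among those with at least 100 control UMIs none had, against 0.282% of 12751 genes. Acta2, Actc1 and Cnn1 had fewer control UMIs (54, 21 and 15) and were not counted there. Their 10 highest control cells held 88.9%, 100% and 73.3% of those UMIs, so the libraries are not compared by these counts.

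Removing the 8 mutant and 2 control cells high in Acta2 showed what was left. In the remaining mesenchyme-like cells, the log2 ratio of Acta2 was 0.76 (-0.03 to 1.55) instead of 4.44 (3.96 to 4.96), from 26 control and 33 mutant UMIs. Actc1 was left with 9 control and 2 mutant UMIs, a log2 ratio of -1.76 (-5.01 to 0.51) instead of 4.44 (3.47 to 5.59). Tagln fell from 1.92 (1.76 to 2.08) to 0.67 (0.48 to 0.87), with 407 control and 488 mutant UMIs left. Cnn1 fell from 2.62 (1.77 to 3.57) to 1.19 (0.18 to 2.25). Rgs5 turned from -0.06 (-0.29 to 0.17) to -0.78 (-1.06 to -0.51). Heyl moved little, from 1.37 (1.06 to 1.69) to 1.23 (0.90 to 1.56), as did Vtn, from 0.61 (0.43 to 0.79) to 0.57 (0.39 to 0.76). Myl9 went from 0.58 (0.49 to 0.66) to 0.46, below its counting interval over all cells.

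**Figure D3:**
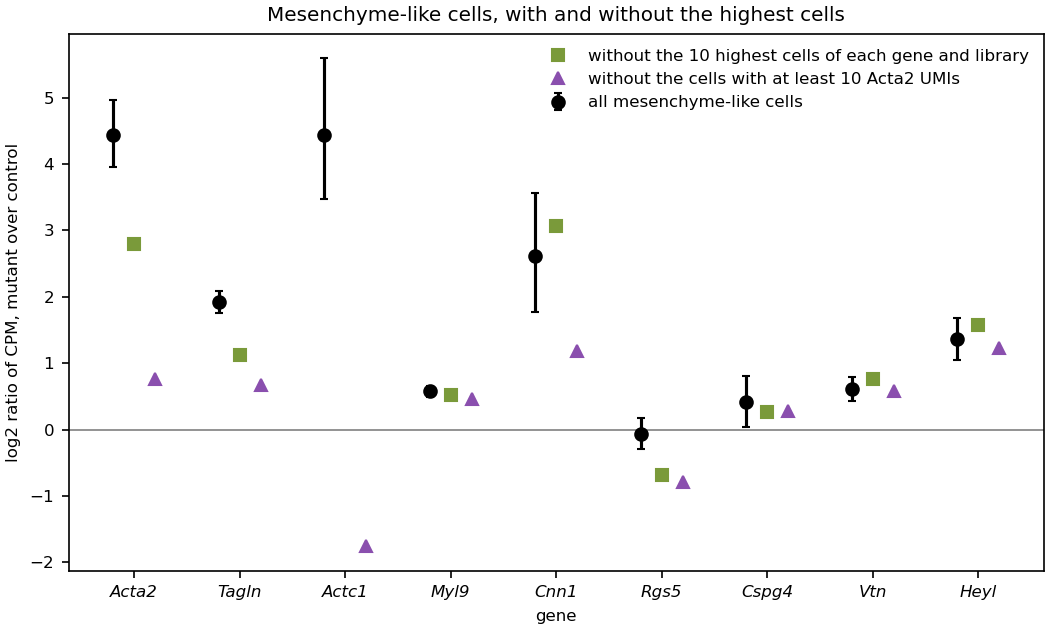
Log2 ratio of CPM, mutant over control, in mesenchyme-like cells for each gene (horizontal axis). Black circles are all cells with exact 95% counting intervals, green squares leave out the 10 highest cells of each gene and library, and purple triangles leave out cells with at least 10 Acta2 UMIs. The triangles of Acta2 and Actc1 fall from 4.44 to 0.76 and -1.76, whereas those of Heyl and Vtn stay at 1.23 and 0.57; Actc1 has no square because no UMI was left.

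The pericyte genes had a different distribution. Vtn, which encodes the adhesion protein vitronectin and is a known marker of brain pericytes, was detected in 101 control (2.69%, 2.19 to 3.26) and 112 mutant (3.98%, 3.29 to 4.77) mesenchyme-like cells. Positive cells held a median of 2 UMIs in each library, with highest values of 44 and 26. Of the 485 control UMIs, 450 lay in cluster 4, as did 467 of the 557 mutant UMIs. Within that cluster the level was 104 CPM (95.1 to 115) in the control and 109 CPM (99.6 to 120) in the mutant cells, a log2 ratio of 0.06 (-0.13 to 0.25). The level of Vtn within cluster 4 thus overlapped between the libraries. This cluster made up 398 of 3759 control and 397 of 2816 mutant mesenchyme-like cells. The cluster made up mostly of called doublets held 5 control and 61 mutant Vtn UMIs, and the mesenchyme ratio without that cluster was not tested. With and without the called doublets of all clusters, the log2 ratio of Vtn in mesenchyme-like cells was 0.61.

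Vtn was also found outside the mesenchyme. Brain progenitor-like cells, a group of 633 control and 1059 mutant cells within the neural-like class, held it at 38.9 CPM (34.7 to 43.5) and 41.0 CPM (37.6 to 44.7), in 16.7% and 18.7% of cells. The highest values there were 12 UMIs in a control and 34 UMIs in a mutant cell. Of the mandibular-like cells, 2 of 765 in the control and 2 of 400 in the mutant library held Vtn.

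Heyl was lower in the mutant library in one class and higher in another. In mesenchyme-like cells it was at 2.21 CPM (1.85 to 2.63) in the control and 5.71 CPM (5.03 to 6.46) in the mutant cells, in 76 cells (2.02%) and 115 cells (4.08%, 3.38 to 4.88). Glia-like cells held the most, with 63.9 CPM (57.2 to 71.3) in the control and 41.0 CPM (34.3 to 48.5) in the mutant cells. There it was detected in 132 of 261 (50.6%) and 75 of 201 cells (37.3%), a log2 ratio of -0.64 (-0.94 to -0.35). The glia-like class had 3.07% called doublets in the control and 7.46% in the mutant library, and without them the log2 ratio was -0.59 (-0.90 to -0.29). Within the mesenchyme, Heyl went from 17.9 to 33.7 CPM in cluster 4, from 1.93 to 6.52 CPM in second arch-like cells and from 0.64 to 3.40 CPM in mandibular-like cells. Without the cells high in Acta2, its log2 ratio was 0.88 (0.45 to 1.32) in cluster 4 and 1.69 (0.91 to 2.54) in second arch-like cells. In mandibular-like cells, 16 of the 22 mutant Heyl UMIs lay in the 3 cells high in Acta2, which left 7 control and 6 mutant UMIs and a log2 ratio of 0.56 (-1.29 to 2.35). In maxillary-like cells the levels were 0.65 and 0.75 CPM, with overlapping intervals.

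**Figure D4:**
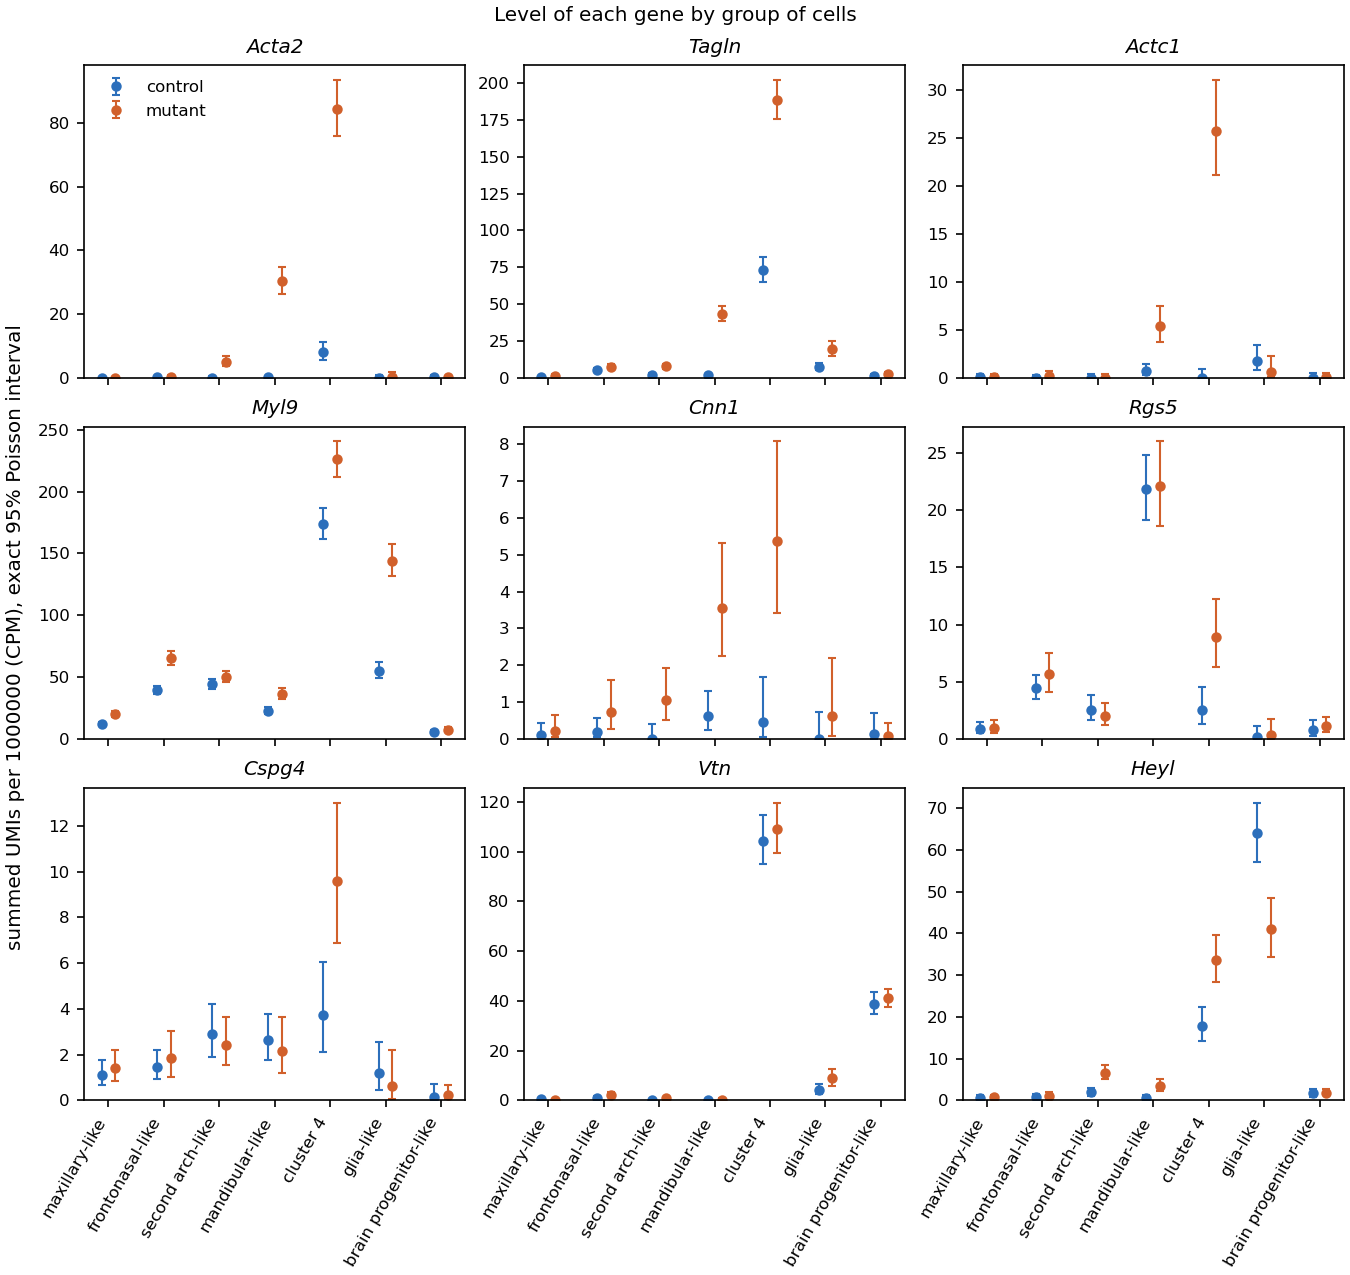
Level of each gene (CPM of summed UMIs, with exact 95% Poisson intervals for counting error) in 5 mesenchyme clusters, glia-like and brain progenitor-like cells, control in blue and mutant in orange; the vertical scales differ between genes. Cluster 4 holds the highest levels of Acta2, Tagln, Myl9 and Vtn in both libraries, Rgs5 is highest in mandibular-like cells and Heyl in glia-like cells.

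Rgs5 was not a gene of cluster 4 in the control. Of its 362 control mesenchyme UMIs, 241 were in mandibular-like cells, where 131 of 765 cells (17.1%) held it, against 11 UMIs in 7 cells of cluster 4. The mandibular-like level was 21.9 CPM (19.2 to 24.8) in the control and 22.1 CPM (18.6 to 26.01) in the mutant cells, but 69 of the 143 mutant UMIs belonged to the cell with 152 Acta2 UMIs. Without the 3 cells high in Acta2 there, 64 mutant UMIs were left, at 9.96 CPM, and the log2 ratio was -1.13 (-1.55 to -0.73) instead of 0.01. In cluster 4 it was at 2.55 CPM (1.28 to 4.57) in the control and 8.89 CPM (6.29 to 12.2) in the mutant cells, with 38 UMIs in 16 mutant cells. Of these 38 UMIs, 15 lay in cells high in Acta2, and without those cells the log2 ratio of Rgs5 in cluster 4 was 1.09 (-0.01 to 2.27), from 11 control and 23 mutant UMIs. The genes most correlated with Rgs5 across control mesenchyme-like cells were Hand1, Plagl1 and Isl1 (r = 0.40, 0.31 and 0.25, over 3759 cells), the first a transcription factor of the distal mandible. In the mutant they were the pericyte genes Kcnj8, Rgs4 and the secreted Igfbp7 (r = 0.40, 0.38 and 0.35, over 2816 cells). Members were left out of both rankings. Acta2 correlated with Rgs5 at 0.42 in the mutant cells, above Kcnj8, and at 0.002 in the control cells. Both genes were found together in 7 mutant cells, all of them high in Acta2, and in 1 control cell. The ranking for Rgs5 was chosen after its values were seen.

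Cspg4, which encodes the proteoglycan NG2 of pericytes and other precursor cells, was sparse, with 114 UMIs in 108 control and 115 UMIs in 99 mutant mesenchyme-like cells, and no cell held more than 4. The log2 ratio was 0.42 (0.03 to 0.81). In cluster 4 it was at 3.71 CPM (2.12 to 6.03) in the control and 9.59 CPM (6.89 to 13.02) in the mutant cells, with a UMI in 14 and 30 cells, while in mandibular-like cells the levels were 2.63 and 2.16 CPM.

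Levels of the contractile genes also varied by group of cells. In cluster 4, Acta2 was at 8.13 CPM (5.66 to 11.3) in the control and 84.2 CPM (75.8 to 93.4) in the mutant cells, although 12 and 13 cells were positive. Tagln was at 73.1 and 189 CPM there, in 86 of 398 (21.6%) and 119 of 397 cells (30.0%). Actc1 had 0 control and 110 mutant UMIs in cluster 4, 37.0-fold higher when the control was set to a floor of 3 counts. All 110 lay in 2 cells, with 54 and 56 UMIs. Myl9 was at 174 and 226 CPM. Without the cells high in Acta2, the log2 ratios in cluster 4 were 0.19 (-0.66 to 1.05) for Acta2, 0.22 (-0.01 to 0.46) for Tagln and 0.23 (0.08 to 0.38) for Myl9, and Actc1 was at 0 UMIs in both libraries. In mandibular-like cells Acta2 had 1 control and 196 mutant UMIs, a log2 ratio of 8.38 (5.89 to 13.7), carried by 3 cells that were high in it. Maxillary-like cells held no Acta2 UMI in either library, 0 of 943 and 0 of 729 cells.

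Brain progenitor-like cells served as a comparison class for the shares of positive cells. Acta2 was found there in 1 of 633 control and 2 of 1059 mutant cells, with 1 UMI each, at median depths of 11653 and 11356 UMIs. Tagln was found in 1.11% and 1.42% and Myl9 in 6.16% and 7.18% of these cells, below their shares in mesenchyme-like cells. Not all of these counts were low, since 1 mutant cell held 14 Tagln UMIs and 1 held 10 Myl9 UMIs, and free RNA and transcripts of the cells themselves cannot be told apart in them. Cnn1 was found in 0.158% and 0.0944% and Heyl in 1.58% (0.760 to 2.89) and 1.79% (1.08 to 2.79) of brain progenitor-like cells. The control mesenchyme shares of Acta2 (0.372%, 0.204 to 0.624) and Cnn1 (0.346%, 0.184 to 0.591) both overlapped the control share in these cells (0.00400 to 0.877 for each gene), as did that of Heyl (2.02%, 1.60 to 2.52). The control shares of Acta2, Cnn1 and Heyl in the mesenchyme are thus not separated from this comparison class.

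In glia-like cells Myl9 had a higher level in the mutant library, 144 CPM (132 to 158) against 55.3 CPM (49.0 to 62.1), and was found in 69.2% (62.3 to 75.5) against 39.1% (33.1 to 45.3) of cells. Tagln was at 19.3 CPM (14.8 to 24.6) against 7.28 CPM (5.12 to 10.0) in these cells. Without called doublets the log2 ratios were 1.42 (1.20 to 1.64) for Myl9 and 1.54 (0.92 to 2.18) for Tagln. Acta2 had 1 mutant and no control UMI, so the higher Myl9 and Tagln levels in glia-like cells were not accompanied by Acta2 at this depth.

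Depth could alter the shares of positive cells, so cells were thinned to 5000 UMIs each, which left out 52 control and 56 mutant mesenchyme-like cells. The share with Tagln was then 2.27% in the control and 4.49% in the mutant cells, with Myl9 15.4% and 20.7%, with Heyl 0.836% and 2.28%, and with Cnn1 0.0809% and 0.543%. For these 4 genes the intervals of the libraries did not overlap before or after thinning. Those of Vtn did not overlap before thinning but overlapped after it, at 1.75% and 2.72%. The intervals of Acta2, Actc1, Rgs5 and Cspg4 overlapped with or without thinning, except that Rgs5 was lower in the mutant cells at full depth (5.80%, 5.07 to 6.59, against 4.19%, 3.48 to 5.00).

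Co-expression was measured in mesenchyme-like cells by the number of cells with both genes, set against the number that the separate shares would give if independent. Acta2 and Tagln were found together in 11 of 14 Acta2-positive control cells and 18 of 23 mutant cells, 18.8 and 10.2 times the independent number. Vtn and Heyl were found together in 27 control cells (0.718%, 0.474 to 1.04) and 42 mutant cells (1.49%, 1.08 to 2.01), 13.2 and 9.18 times the independent number, and 24 and 38 of these lay in cluster 4. Acta2 and Heyl were together in 2 control and 12 mutant cells, Rgs5 and Heyl in 2 and 19, and Cspg4 and Heyl in 5 and 22. Cells high in Acta2 made up part of these numbers. Without them, Acta2 and Tagln were together in 10 control and 10 mutant cells, Acta2 and Heyl in 1 and 4, Rgs5 and Heyl in 2 and 12, Cspg4 and Heyl in 5 and 17, and Vtn and Heyl in 26 and 39. The co-detection of Rgs5 and Heyl was 0.454 times the independent number in the control and 3.94 times in the mutant library. The control value rests on 2 cells against an independent number of 4.41, and its difference from that number was not tested. The cells of a library share depth and type, whose part in these numbers was not tested.

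**Figure D5:**
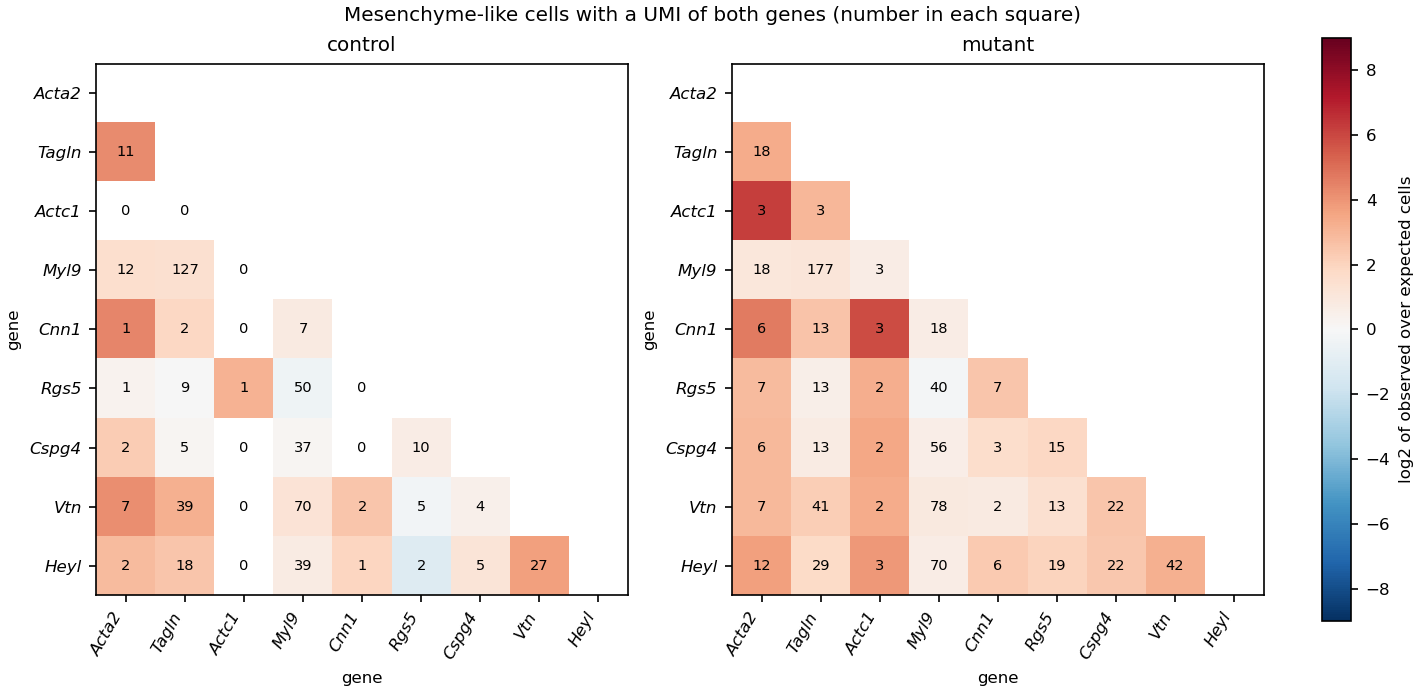
Number of mesenchyme-like cells with a UMI of both genes of a pair (in each square), control left and mutant right, coloured by the log2 of observed over independent cells; squares with 0 cells are white. The pairs of Heyl with Rgs5, Cspg4 and Acta2 go from 2, 5 and 2 control cells to 19, 22 and 12 mutant cells, of which 7, 5 and 8 are high in Acta2.

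Cells with Vtn and Heyl had other pericyte genes. Of these 27 control and 42 mutant cells, Rgs5 was found in 1 (3.70%, 0.0937 to 19.0) and 11 (26.2%, 13.9 to 42.0), and Rgs4 in 1 and 12 (28.6%, 15.7 to 44.6). Kcnj8 was found in 7 and 18, Pdgfrb in 24 and 36, Tbx18 in 21 and 25, and Cspg4 in 4 and 16 of these cells, and Acta2 in 2 and 6. Of the 42 mutant cells, 3 were high in Acta2, and all 3 held Rgs5. Their median depths were 10952 and 10102 UMIs. In cluster 4 as a whole, Rgs4 had 3 control and 53 mutant UMIs, a log2 ratio of 4.15 (2.53 to 6.48). These cells and Rgs4 were chosen after the values were seen.

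Most mesenchyme-like cells held few of the 9 genes. None was found in 2307 control (61.4%) and 1509 mutant (53.6%) cells. Exactly 5 were found in 4 control cells, and no control cell held more. In the mutant library 10 cells held 5, 4 held 6, 3 held 7, 1 held 8 and 1 held all 9. The correlation rankings that follow leave out the 9 members. Across cells, the genes most correlated with Acta2 in the mutant library were Hspb1, a small heat-shock protein of muscle (r = 0.45), Nrarp, a Notch target (0.31), Gucy1b1, a subunit of the nitric oxide receptor of mural cells (0.30), Mcam (0.30) and Kcnj8 (0.28), over 2816 cells. In the control they were Anxa3, Zic1, Apod, Vstm4 and Anxa2, with r between 0.20 and 0.29 over 3759 cells. For Vtn they included Lamc3, Pltp, Zic1 and Tbx18 in the control (0.48 to 0.57) and Pltp, Lamc3, Col4a1 and Col4a2 in the mutant library (0.45 to 0.62). The lipid transfer gene Pltp and the laminin gene Lamc3 were thus in both Vtn rankings. These values describe sparse counts in which cells share library and depth. Among the members themselves, Acta2 correlated with Tagln at 0.35 in the control and 0.60 in the mutant cells, and Vtn with Heyl at 0.45 and 0.57. Acta2 correlated with Actc1 and Cnn1 at 0.65 and 0.62 in the mutant and at -0.001 and 0.06 in the control cells. The mutant cells with both genes of these pairs numbered 3 and 6, and all of them were high in Acta2. In the control, Actc1 had 9 UMIs in 2 mesenchyme-like cells.

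Other genes of the pathway were counted in mesenchyme-like cells from lists chosen with earlier results known. Over all 11658 genes counted there, 2.39% were 1.5-fold or more higher in the mutant library and 0.875% lower. Of 14 contractile companions, 11 reached 100 UMIs in one library or the other and 0 of 11 was 1.5-fold higher or lower, with a median log2 ratio of 0.15. The caldesmon gene Cald1 was at 565 and 595 CPM and Tpm1 at 247 and 290 CPM, and of the 77941 mutant UMIs of the whole list 1249 lay in the 8 cells high in Acta2. Below the minimum of 100 UMIs, the smooth muscle γ-actin gene Actg2 had 9 control and 47 mutant UMIs, a log2 ratio of 2.79 (1.75 to 4.01), and was named after its values were seen. Of these 47 UMIs, 38 lay in the 8 cells high in Acta2, and 9 control and 9 mutant UMIs were left without them. Of 5 regulators of smooth muscle genes, 4 were counted and none passed in either direction. Srf, the factor that binds the CArG box, was at 10.96 and 10.8 CPM, and Myocd had 34 control and 44 mutant UMIs. Of 17 genes of mural signalling, 13 were counted, 5 were higher and none lower, with a median of 0.40. Notch1 was at 13.6 and 22.4 CPM (log2 ratio 0.72, 0.58 to 0.85) and Tgfb1 at 2.13 and 3.59 CPM (0.76, 0.41 to 1.11), whereas the receptor Pdgfrb was at 61.4 and 63.9 CPM and Notch3 at 38.2 and 41.0 CPM. The other 3 higher genes were Acvrl1, Eng and Angpt1. Of 12 mural markers, 8 were counted, 5 were higher and none lower, with a median of 0.82, namely Ebf1 (95.2 and 199 CPM), Kcnj8 (1.23 and 2.46 CPM), Mcam, Rgs4 and Tbx18. Kcnj8 reached 100 UMIs in the mutant library alone, where 24 of its 108 UMIs lay in the 8 cells high in Acta2. Because the lists were chosen with earlier results known, nothing is read from these counts. Within cluster 4 the median log2 ratio was 0.13 over the 4 mural markers and 0.13 over the 6 signalling genes counted. Over all 6346 genes counted in that cluster it was -0.02.

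Markers of other cell types were counted in the same way in mesenchyme-like cells, and their part in the member ratios was not tested. The shares over all genes were again 2.39% higher and 0.875% lower. All 5 neuron markers counted were higher in the mutant cells (2327 and 3329 UMIs summed), as were 3 of 4 brain progenitor markers. All 3 blood markers were lower (8294 and 60 UMIs), and 1 barcode held 7942 of these control UMIs. None of 5 mesenchyme, 2 glia, 4 maxillary, 4 skeletal muscle, 1 endothelial and 2 epithelial markers was 1.5-fold higher or lower, and no heart or macrophage marker reached 100 UMIs. Of the markers of facial position, 2 of 5 frontonasal and 1 of 4 mandibular markers were lower, 1 of 2 second arch markers was higher, and 1 of 4 periocular or meningeal markers was higher and 1 lower.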

How the data were processed

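Single-cell RNA-seq was made with 10x Genomics droplets from 1 control and 1 mutant library. The authors deposited raw UMI counts for each gene in each barcode, made with Cell Ranger (6.0.0 in the file headers) and mm10. The submitters' processing notes also name bcl2fastq and Seurat 4.3.0. As in the study, barcodes were kept with 200 to 7500 genes and at most 10% mitochondrial UMIs, which removed 523 control and 476 mutant barcodes. Doublets were called with Scrublet in scanpy 1.11.5 (1.65% and 3.06%) and kept. The libraries were integrated with Seurat 5.3.0 in R 4.3.3 (2000 variable genes, 30 dimensions, resolution 0.05), and mesenchyme-like cells were then subclustered (20 dimensions, resolution 0.2), in both steps with the members, both targeted genes and sex-linked genes left out. Brain progenitors were not separated from neurons at 0.05, so those cells come from a resolution of 0.1.

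Sums of UMIs were given as CPM with exact Poisson intervals, ratios with exact conditional binomial intervals and shares with exact Clopper-Pearson intervals, at 95%, checked on simulated data. PCR copies are merged by UMI, and the intervals cover counting error only. Cells are not replicates, so no p-value is given. Alternatives were TMM scaling (edgeR 4.0.16), other filters, thinning and leaving out high cells.

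The members and lists were chosen with earlier results of these data known. All 9 members are named, up to 4 genes with the most UMIs of each list and defining markers at 0, the 5 genes most correlated with Acta2 and with Vtn on log2(UMIs per 10000 + 1) among genes with at least 100 UMIs, and the 10 leading genes of the Acta2-high cells. Members were left out of the correlation rankings in mesenchyme-like cells. Other genes were named after their values were seen. Some genes that these rules would name are not reported here. Promoters are from RefSeq, and 7 of the 9 genes matched; Tagln and Heyl were not used there.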

Additional observations from a re-analysis of the deposited data

Results flagged for a closer look

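Heyl and Acta2 went opposite ways in 2 classes of cells, and the differences were not tested. Heyl had a log2 ratio, mutant over control, of 1.37 in mesenchyme-like cells and -0.64 in glia-like cells. Acta2 had 4.44 in mesenchyme-like cells and -2.75 (-4.78 to -1.14) in neural-like cells, where 16 of the 17 control UMIs lay in the barcode of 843 UMIs described above.

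Barcodes removed by the filter, which entered no comparison, held Acta2 in the mutant library alone. Among 476 removed mutant barcodes there were 82 Acta2 UMIs in 3 barcodes, and 2 of these held at least 10. The highest held 51 Acta2 UMIs of 4712 and had 19.0% mitochondrial UMIs. The 523 removed control barcodes held 0. Tagln had 8 control and 100 mutant UMIs in removed barcodes.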

How the results depend on the processing

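Of 50 values for the main counts of genes or cells under an alternative, 36 stayed within 1.5 times the value reported, and of 219 values for single genes and other pairs 171 stayed within the counting interval or, for counts, within 1.5 times. The results were most dependent on a few cells. Leaving out the Acta2-high cells was an alternative chosen after seeing the data. The number of members 1.5-fold or more higher in the mutant library fell from 5 to 2 over all kept cells. In mesenchyme-like cells it fell from 6 to 4. These numbers include Cnn1, which had too few UMIs to be counted among all genes. With every cell and without Cnn1 they were 4 and 5, against 6.65% and 2.39% of all genes. No such share is given without the Acta2-high cells. The 2 left were Acta2 (0.59, -0.16 to 1.35) and Cnn1 (0.94, -0.02 to 1.96). The 4 left included Acta2 (0.76, -0.03 to 1.55) and Cnn1, with 14 control and 24 mutant UMIs. Without the Acta2-high cells, Actc1 reversed to -1.49 over all kept cells and to -1.76 in mesenchyme-like cells, because its 3 high cells were left out. With equal weight per cell the log2 ratio of Acta2 over all kept cells was 0.94 instead of 3.59. The control barcode of 843 UMIs with 16 Acta2 UMIs raised the control mean in that setting, and without it the value was 3.44. Without the 10 highest cells of each library the log2 ratio of Acta2 was 2.21 over all kept cells, from 6 control and 26 mutant UMIs. In mesenchyme-like cells it was 2.80, from 4 control and 21 mutant UMIs. Positive cells of that class numbered 14 and 23, so leaving out 10 removed a larger part of the control ones. These 2 ratios therefore do not show how much of the difference is left. Vtn lay at the 1.5-fold limit (0.59 over all kept cells) and fell below it under TMM scaling, which lowered all log2 ratios by 0.05 there and by 0.03 in mesenchyme-like cells.

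A cut of 20 Acta2 UMIs left 7 mutant and 0 control cells, and without the barcode filter there were 10 and 2. Cells with Acta2 and Tagln numbered 5 in the control and 11 in the mutant library with at least 2 UMIs of each, 6 and 11 after thinning to 5000 UMIs, and 10 and 10 without the Acta2-high cells. Cells with Vtn and Heyl numbered 15 and 28 with at least 2 UMIs of each, and 13 and 24 after thinning, or 0.351% and 0.870% of cells. With a minimum of 30 UMIs, 1370 genes were higher and 312 lower over all kept cells, and 610 and 273 in mesenchyme-like cells, against 866, 173, 279 and 102 with 100 UMIs. No paired analysis was possible because each group had 1 library.

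Each group was 1 pool of 2 embryos, so no value separates genotype from library, sex or dissection. Depth limits Cnn1, Actc1 and Cspg4, which had between 15 and 152 UMIs per library.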

Other observations

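Vtn had different partners outside the mesenchyme. Across brain progenitor-like cells, the genes most correlated with it were Lrtm1, Spon1 and Dmrta2 (r = 0.43, 0.38 and 0.34, over 633 control cells) and Wnt4, Slit2 and Metrnl (0.43, 0.37 and 0.36, over 1059 mutant cells), and the mural partners Pltp and Lamc3 were not among the 5 highest in either library. In glia-like cells, the genes most correlated with Heyl included Ptn and Ccnd2 in the control (0.48 and 0.47, over 261 cells) and Igsf9b, Slc1a3 and Adnp in the mutant library (0.33, 0.25 and 0.24, over 201 cells). Myl9 there correlated with Cnn2 and Mest in the control (0.58 and 0.58) and with Lmo4 and Mest in the mutant cells (0.55 and 0.48). These classes and genes were chosen after the values were seen, and the correlations are descriptions across cells of 1 library.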
